A study of Mus musculus with 12 samples.

Results

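The genes described here encode the enzymes that attach glucuronic acid, other sugars, glutathione, sulfate or an acetyl group to drugs, hormones and metabolites. They were taken by name: every gene whose symbol begins with Ugt1, Ugt2, Ugt3, Gsta, Gstm, Gstp, Gstt, Gstk, Gsto, Gstz, Mgst, Sult or Nat8, without pseudogenes, and with a mean CPM, the count of a gene relative to the total of its library, of at least 0.5 over 12 libraries. The rule gave 45 genes of the 38924 gene identifiers in the count tables. All 45 were annotated as protein coding. The names cover 75 genes that are not pseudogenes, and 30 of them fell below the minimum. Ugt1a9 (0.519 CPM), Sult5a1 (0.680) and Gsto2 (0.683) were just inside it, and Ugt1a2 (0.493), Ugt1a1 (0.325) and Nat8l (0.236) were just outside.

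RNA was sequenced from whole mouse kidneys in 4 groups of 3 libraries. They came from wild-type mice and from mice with an induced, tubule-specific loss of Arntl, the gene of the clock transcription factor BMAL1, taken at zeitgeber time (ZT) 4, in the light phase, and at ZT16, in the dark phase, of a 12 h light and 12 h dark cycle. The knockout mice carried the floxed alleles Bmal1lox/lox together with Pax8-rtTA and with LC-1 Cre, on a C57BL/6J background. To induce the loss they drank water with 2 mg/ml doxycycline for 2 weeks, starting when they were 8 weeks old. The Pax8 promoter limits Cre to the tubule, so other kidney cells keep the gene. Whether the wild-type mice received doxycycline or carried any of the alleles is not said in the labels. They also do not say that each library is a different mouse, so the p-values measure a spread between libraries that may be technical. The comparisons ask what the loss of tubular BMAL1 changes at each time, and what changes between the times with and without it.

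Conjugation makes fat-soluble molecules more soluble and ready for export into urine or bile. UDP-glucuronosyltransferases (Ugt1, Ugt2) use UDP-glucuronic acid, the Ugt3 enzymes use other UDP-sugars, sulfotransferases (Sult) use the sulfate donor PAPS, and glutathione S-transferases (Gst, Mgst) use glutathione. In the kidney, glutathione conjugates are cut by gamma-glutamyltransferase and dipeptidases to cysteine conjugates, and NAT8 acetylates these to mercapturic acids, which leave in urine. The proximal tubule carries most of these steps.

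The libraries held 25628887 to 38043491 counts assigned to genes, and the 45 genes took 0.596 to 0.896% of them. Levels are given as CPM scaled with the trimmed mean of M-values (TMM). Arntl itself was at 13.8 to 20.0 CPM at ZT4 and 8.63 to 11.0 at ZT16 in wild type, and at 14.4 to 16.2 and 12.3 to 15.01 in the libraries labelled knockout. The counts cover the whole gene and the labels do not name the deleted part, so they do not check the deletion, and "knockout" below follows the labels. Npas2, the gene of a BMAL1 partner, was higher in knockout at ZT4 (log2 fold change 2.21 ± 0.17 SE, adjusted p = 2.14e-05) and Dbp, the gene of a clock output factor, was lower (-1.56 ± 0.20, adjusted p = 0.000847). The labels give no sex, and Xist was at 0 to 0.192 CPM and Ddx3y at 70.5 to 135 in all libraries.

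One library stood apart. On the first principal component, which held 46.7% of the variance, knockout ZT16 replicate 2 lay at 43.0 and the other knockout ZT16 libraries at -9.74 and -11.8. Its share of counts from mitochondrial genes was 22.3%, against 14.1 and 14.0% in those libraries. Of the 45 genes, 35 were above both other knockout ZT16 libraries in it and 7 below both, with a median ratio of 1.42 to their mean, where the median over all tested genes was 1.001. Counts of called genes, of the 45 and of most lists, are therefore given below with and without it. Genes of the 45 are named where its removal changed the call.

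Levels spanned a wide range between the genes. Per kilobase of exon, the unit in which genes can be compared, Ugt3a2 had the highest mean (644.9 CPM per kb), followed by Sult1d1 (478.5), Ugt2b38 (455.7), Gstm1 (194.7), Nat8f1 (193.5) and Nat8 (179.6). Ugt3a2 adds sugars other than glucuronic acid, and Sult1d1 is a sulfotransferase known to act on catecholamines. The leading genes of the other families by CPM were Ugt1a7c, Gsta2, Gstp1, Gstt2, Gstk1, Gsto1, Gstz1 (maleylacetoacetate isomerase of tyrosine breakdown) and Mgst3. In the Ugt3 family Ugt3a2 made up 87.3% of the summed CPM, and in the Sult family Sult1d1 made up 88.3%. The lowest genes, such as Sult5a1, Gsto2, Sult2b1 and Gstm6, stayed under 2 CPM in each library.

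**Figure D1:**
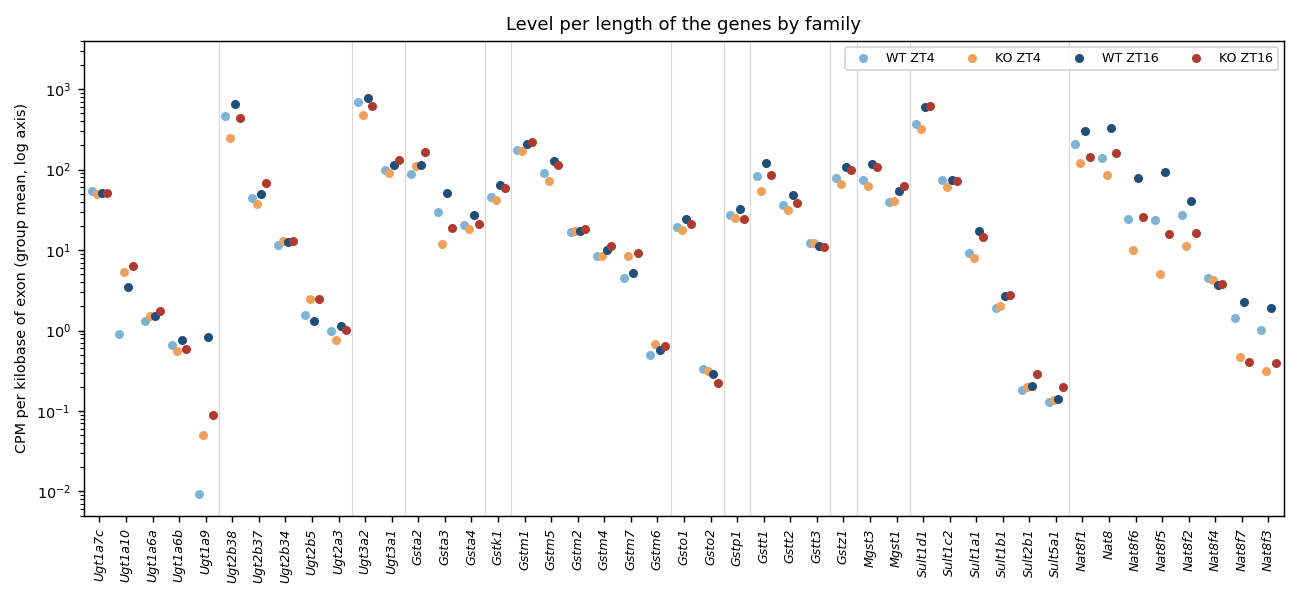
Mean level of each of the 45 genes in the 4 groups, in TMM-scaled CPM per kilobase of exon on a log axis, with families separated by grey lines. Ugt3a2, Sult1d1 and Ugt2b38 lie highest, the Nat8 genes other than Nat8f4 lie lower in both knockout groups (orange, red) than in wild type of the same time, and Ugt1a9 is highest in wild type at ZT16.

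Summed over all 45 genes, the level was 7079 ± 686 CPM (SD, n = 3) in wild type and 5292 ± 116 in knockout at ZT4. At ZT16 it was 9523 ± 1310 in wild type and 7825 ± 2223 in knockout. The ZT4 libraries did not overlap between genotypes (6376 to 7747 against 5186 to 5416 CPM), while those at ZT16 did. Measures of the libraries moved with genotype too. At ZT4 mitochondrial genes took 16.3 to 17.96% of the counts in wild type and 12.6 to 12.8% in knockout, and reads without a unique position made up 34.1 to 36.5% against 30.8 to 31.3%. Reads without a feature came to 4.38 to 5.10% against 5.72 to 5.96%. None of these overlapped at ZT4, and at ZT16 knockout replicate 2 was the library that brought the groups together. Their part in the differences between genotypes was not tested. The Nat8 family went from 611.8 ± 94.7 CPM in wild type to 333.7 ± 4.63 in knockout at ZT4, and from 1162 ± 115 to 503.0 ± 155 at ZT16. Its library values did not overlap at either time, with 681.9 CPM as the highest knockout value at ZT16, in replicate 2, and 1040 as the lowest wild-type value. In the Ugt2 family the ZT4 sums were 895.1 to 1245 CPM in wild type and 576.6 to 645.1 in knockout, and in the Ugt3 family 2203 to 2554 and 1665 to 1750. At ZT16 both families overlapped, with Ugt2 sums of 1135 to 1910 CPM against 712.9 to 1525 and Ugt3 sums of 2490 to 3134 against 2069 to 2734. The Ugt1 sums overlapped between genotypes at both times. In whole kidney, fewer cells of a type and less RNA per cell cannot be told apart.

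Of the 44 genes that could be tested (Ugt1a9 did not pass the filter on low counts), 10 differed between knockout and wild type at ZT4 and 9 at ZT16, at an adjusted p under 0.05 (edgeR quasi-likelihood test, Benjamini-Hochberg over 16150 genes). Over all tested genes 3.29% were called at ZT4 and 4.03% at ZT16. At ZT4, 8 were lower, beside 1.66% of all tested genes (Nat8f1, Nat8f2, Nat8f3, Nat8f5, Nat8f6, Nat8f7, Gsta3 and Ugt3a2), and 2 higher, beside 1.63% (Gstm7 and Ugt1a10). At ZT16, 8 were lower, beside 1.96% (the same 6 Nat8 genes, Gsta3 and Gstp1), and 1 higher, beside 2.07% (Gstm7). Thus 8 genes were called at both times, each in the same direction. Outside the Nat8 family 4 of 36 tested genes were called at ZT4 and 3 of 36 at ZT16.

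Library values did not overlap between genotypes for 23 of the 44 genes at ZT4, beside 37.7% of all tested genes: 17 lower (18.4%) and 6 higher (19.3%). At ZT16 this held for 13 genes, beside 15.9%: 10 lower (7.95%) and 3 higher (7.92%).

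The median log2 fold change of the 44 genes was -0.15 at ZT4 and -0.13 at ZT16, beside 0.00 and 0.02 over all tested genes. Without knockout ZT16 replicate 2 the ZT16 median was -0.37, and without replicate 4 or 6 of that group it was 0.01 or -0.01. Without replicate 2, which also enters the common estimate of spread, 17 genes were called at ZT4 (4 higher, 13 lower) and 23 at ZT16 (2 higher, 21 lower). The share over all genes then was 15.3% and 31.2%, so the members' counts rose together with those of other genes. All 10 and 9 genes called with that library were called without it. The genes its removal added at both times were Gstm5, Gstt1, Nat8, Sult1c2 and Ugt2b38. At ZT4 the removal also added Gsta2 and Ugt2b5, and at ZT16 Gsta4, Gstk1, Gsto1, Gstt2, Gstz1, Mgst3, Sult1a1, Sult5a1 and Ugt3a2.

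**Figure D2:**
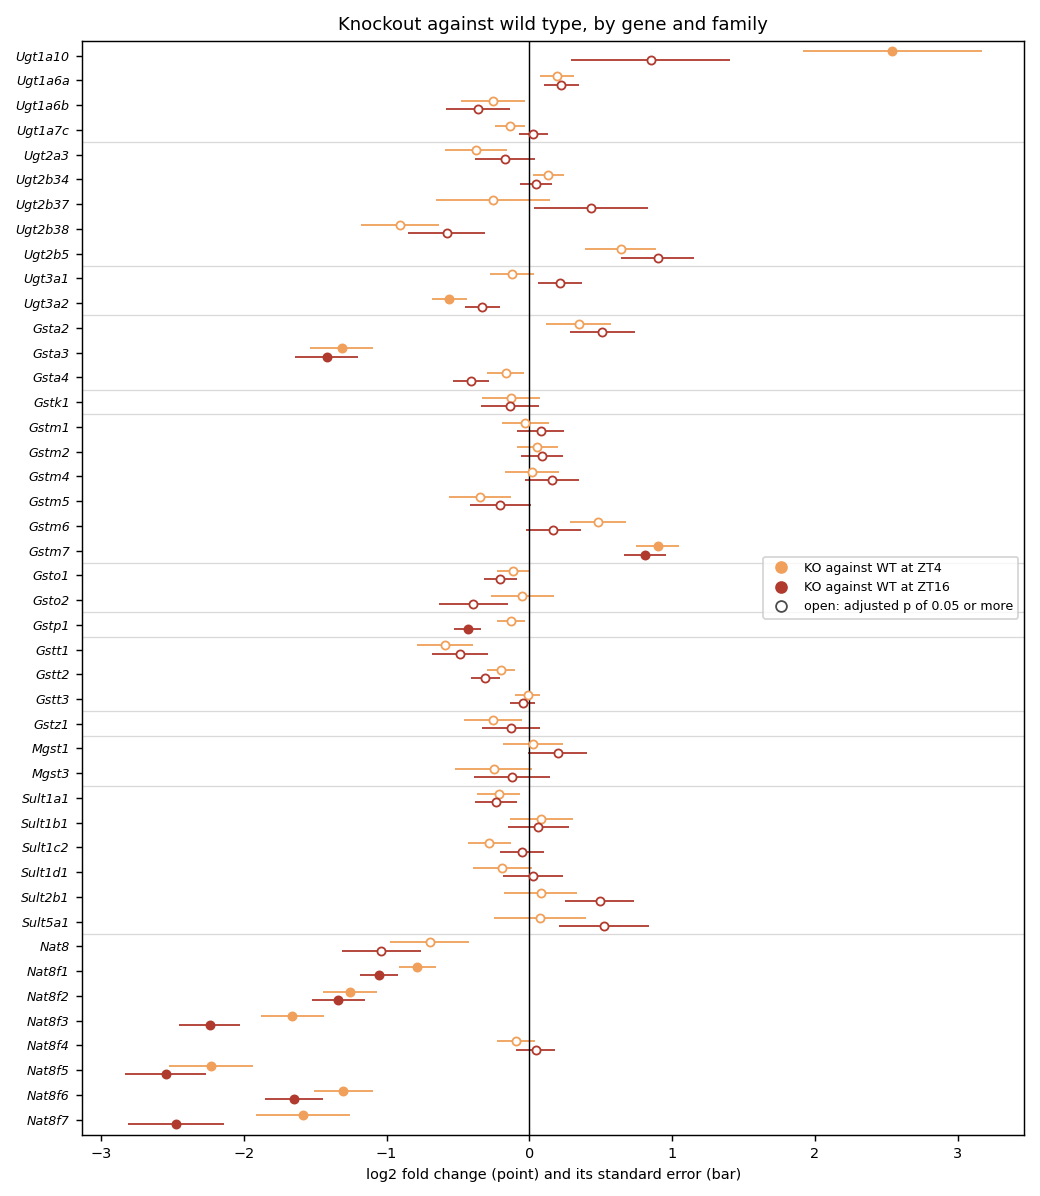
Log2 fold change of knockout against wild type for the 44 tested genes at ZT4 (orange) and ZT16 (red), with standard errors as bars; filled points have an adjusted p under 0.05. The Nat8 genes other than Nat8f4 and Nat8 are filled on the left at both times, Gsta3 is filled on the left and Gstm7 on the right, and most other genes lie near 0 with open points.

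The Nat8 genes lie together on chromosome 6, in a stretch of 209 kb on the minus strand (85706727 to 85915687, GRCm38). Nat8 encodes the enzyme of mercapturic acid synthesis, and Nat8f1 to Nat8f7 are close relatives. Nat8f5 (ENSMUSG00000079494, chr6:85817218-85820972) and Nat8f6 (ENSMUSG00000079495, chr6:85808024-85820954) overlap there, sharing 13.7% of the exonic bases of Nat8f5 and 7.95% of those of Nat8f6. Reads of these genes can be hard to place: of all 50-base stretches of the annotated transcripts, 82.3% of Nat8f7, 68.0% of Nat8f6 and 52.1% of Nat8f3 occur in another gene too, but only 5.68% of Nat8 and 9.29% of Nat8f5. Reads without a unique position were counted to no gene. Values of Nat8f3, Nat8f6 and Nat8f7 can thus miss part of their reads, and how many is not known. In Nat8f1, 35.5% of the exonic bases lie opposite the neighbouring gene Tprkb.

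The starts of Nat8f5, Nat8f3 and Nat8f2 are shown, 3 relatives lower in knockout at both times whose windows lie at or within a few bases of the annotated 5′ end. Each sequence is the 250 bases before the RefSeq transcription start (GRCm38.p6), 5′ to 3′ along the gene. Capitals mark matches, on either strand, to 6 motifs searched: the E-box CACGTG and E-prime box CACGTT of clock factors, the D-box TTANNTAA of PAR bZIP factors such as DBP, the nuclear receptor core AGGTCA, the antioxidant response element TGACNNNGC and the xenobiotic response element core GCGTG. The 3 windows lie on the minus strand at chr6:85820973-85821222, chr6:85765745-85765994 and chr6:85869138-85869387.
Nat8f5: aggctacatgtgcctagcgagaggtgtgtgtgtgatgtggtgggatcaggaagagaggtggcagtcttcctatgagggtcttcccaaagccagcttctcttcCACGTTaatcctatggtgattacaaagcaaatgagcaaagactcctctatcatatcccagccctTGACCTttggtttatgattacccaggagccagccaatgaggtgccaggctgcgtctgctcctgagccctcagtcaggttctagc
Nat8f3: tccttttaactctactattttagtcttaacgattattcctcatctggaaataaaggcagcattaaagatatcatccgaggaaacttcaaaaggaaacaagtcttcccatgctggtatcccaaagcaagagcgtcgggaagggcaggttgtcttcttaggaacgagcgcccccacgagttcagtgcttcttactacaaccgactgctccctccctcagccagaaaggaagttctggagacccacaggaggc
Nat8f2: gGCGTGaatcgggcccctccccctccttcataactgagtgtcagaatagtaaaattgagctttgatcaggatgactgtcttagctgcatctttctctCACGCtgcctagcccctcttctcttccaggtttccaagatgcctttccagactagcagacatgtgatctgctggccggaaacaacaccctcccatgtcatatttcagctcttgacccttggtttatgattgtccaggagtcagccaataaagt
Nat8f5 held the E-prime box 148 bases and the nuclear receptor core 84 bases before its start, Nat8f2 the xenobiotic core 249 and 153 bases before, and Nat8f3 none of the 6. Aligned with Nat8f5, the windows of Nat8f2 and Nat8f3 were identical in 51.3 and 49.8% of columns. Those of Nat8f4, which was not called between genotypes, gave 48.2 and 51.4%, so these values do not set the falling genes apart. The RefSeq starts of Nat8f6 and Nat8f7 lie inside the annotated genes (chr6:85808024-85820954 and chr6:85706727-85713205) and not at their 5′ ends, so those windows do not show where the counted transcripts begin. They were alike, with 236 of 258 aligned columns identical (91.5%).

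Nat8f5 was at 19.7, 36.8 and 14.4 CPM in the wild-type libraries at ZT4 and at 4.91, 5.09 and 5.04 in knockout. At ZT16 it was at 92.1, 81.9 and 103 CPM in wild type and at 19.3, 11.7 and 16.5 in knockout. Every knockout library lay below every wild-type library of its time, and the highest knockout value at ZT16 was near the middle wild-type value at ZT4. The log2 fold changes were -2.23 ± 0.30 (SE, adjusted p = 0.00112) and -2.55 ± 0.28 (adjusted p = 0.000238).

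Nat8f1 (ENSMUSG00000057103), the most abundant of the family, was at 310.2, 287.5 and 235.6 CPM in wild type and 159.2, 162.8 and 161.5 in knockout at ZT4, and at 427.9, 386.2 and 404.6 against 237.5, 184.8 and 164.9 at ZT16. The groups were separate at both times, although the fall was the smallest of the 6 called relatives. It was -0.79 ± 0.13 on the log2 scale at ZT4 and -1.05 ± 0.13 at ZT16 (adjusted p = 0.0059 and 0.000574).

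Nat8f2 (ENSMUSG00000033634) was at 95.1, 92.4 and 82.2 CPM in wild type and 43.8, 33.1 and 35.8 in knockout at ZT4. At the later time it was at 132.5, 117.1 and 157.8 against 72.5, 43.3 and 45.3. Again no knockout library reached the lowest wild-type one. The log2 fold changes were -1.26 ± 0.19 (adjusted p = 0.00274) and -1.34 ± 0.19 (adjusted p = 0.00127). Nat8f6 was at 40.7, 53.8 and 30.9 CPM against 17.2, 16.1 and 17.4 at ZT4, and at 133.6, 130 and 141.6 against 57.5, 34.1 and 37.8 at ZT16. Its falls were -1.30 ± 0.21 (adjusted p = 0.00376) and -1.65 ± 0.20 (adjusted p = 0.000514). In knockout at ZT16, Nat8f6 stood close to its wild-type level at ZT4.

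The scarce relatives moved in the same direction. Nat8f3 (ENSMUSG00000051262) was at 3.44, 3.76 and 2.24 CPM in wild type and 1.004, 0.833 and 1.16 in knockout at ZT4, and at 6.32, 5.32 and 6.07 against 1.54, 1.13 and 1.09 at ZT16 (-1.66 ± 0.22 and -2.24 ± 0.21, adjusted p = 0.00116 and 7.58e-05). Nat8f7 (ENSMUSG00000089694) was at 3.02, 3.04 and 1.84 CPM against 0.528, 1.18 and 0.885 at ZT4, and at 4.47, 2.94 and 5.06 against 1.03, 0.658 and 0.543 at ZT16 (-1.59 ± 0.33 and -2.48 ± 0.33, adjusted p = 0.0213 and 0.000943). Neither gene overlapped between genotypes at either time. The call of Nat8f7 at ZT4 was lost without wild-type ZT4 replicate 1 or 3 or knockout ZT4 replicate 2 or 6, with an adjusted p of up to 0.0947.

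Nat8 (ENSMUSG00000030004) was at 143.7, 204.3 and 127.3 CPM in wild type and 88.2, 103.4 and 101.1 in knockout at ZT4, and at 366.8, 304.4 and 439.4 against 280.2, 117.7 and 143.2 at ZT16. Its libraries did not overlap between genotypes, but the log2 fold changes of -0.70 ± 0.28 and -1.04 ± 0.28 did not pass the test (adjusted p = 0.214 and 0.0641). Without knockout ZT16 replicate 2, which held the 280.2 CPM, they were -0.70 and -1.52 with an adjusted p of 0.0115 and 9.57e-05. Nat8f4, at 12.6 to 17.2 CPM in wild type and 12.3 to 14.9 in knockout at ZT4 and 10.1 to 13.2 and 11.6 to 12.8 at ZT16, overlapped between genotypes at both times.

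Genes around the cluster were measured too. Within 200 kb of it, 5 other genes were tested (Alms1, Ptges3-ps, Tprkb, Dusp11 and Add2), and none was called between genotypes with all 12 libraries in the fit. Their log2 fold changes ran from -0.28 to 0.28 at ZT4 and from -0.29 to 0.37 at ZT16. Tprkb, opposite Nat8f1, was at the low end of both ranges. Tprkb was called lower at both times without knockout ZT16 replicate 2 (-0.28 and -0.54, adjusted p = 0.0321 and 0.00108), as was Alms1 higher at ZT16 (0.45, adjusted p = 0.0297).

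**Figure D3:**
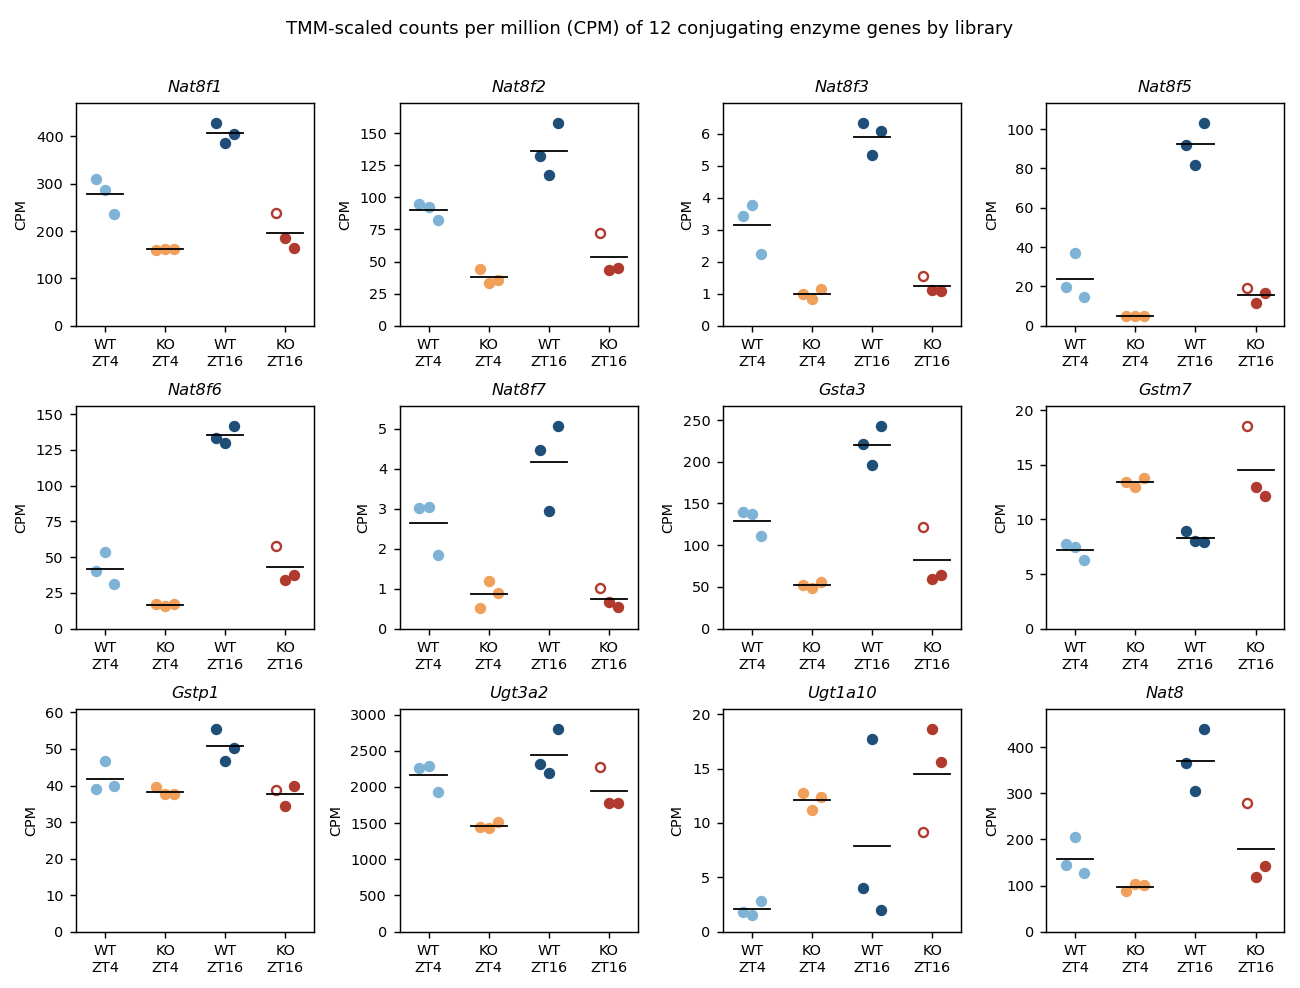
TMM-scaled CPM of 12 of the genes in each library (points) with the group mean (line); the open point is knockout ZT16 replicate 2, and each panel has its own axis from 0. The 6 called Nat8 relatives and Gsta3 are lower and Gstm7 is higher in both knockout groups, and Ugt1a10 has 1 wild-type ZT16 library at 17.7 CPM among others near 2 to 4.

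Among the 17 tested soluble glutathione transferases, 2 were called at ZT4 and 3 at ZT16. Gsta3 (ENSMUSG00000025934, chr1:21240589-21265661, plus strand), an alpha-class enzyme, fell at both times, and Gstm7 (ENSMUSG00000004035, chr3:107926334-107931817, minus strand), of the mu class, rose. Their starts are shown to set the falling gene beside the rising one, as windows at chr1:21240335-21240584 and chr3:107931818-107932067 of the same build, with capitals as above.
Gsta3: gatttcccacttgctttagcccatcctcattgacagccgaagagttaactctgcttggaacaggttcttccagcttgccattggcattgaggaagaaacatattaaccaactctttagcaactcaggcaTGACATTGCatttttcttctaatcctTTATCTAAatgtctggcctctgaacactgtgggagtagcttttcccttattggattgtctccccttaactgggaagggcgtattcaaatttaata
Gstm7: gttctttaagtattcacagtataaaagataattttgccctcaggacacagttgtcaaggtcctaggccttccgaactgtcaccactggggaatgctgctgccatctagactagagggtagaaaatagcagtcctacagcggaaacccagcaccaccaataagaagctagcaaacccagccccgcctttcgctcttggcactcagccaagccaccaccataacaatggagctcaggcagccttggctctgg
Gsta3 held the antioxidant response element 121 bases and a D-box 95 bases before its start. The window of Gstm7, which ends where the annotated gene begins, held none of the motifs. RefSeq lists another start of Gstm7 inside the annotated gene, and the antioxidant response element 129 bases before that start lies within the first annotated exon.

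Gsta3 was at 139.4, 137.1 and 111.2 CPM in wild type and 51.9, 48.3 and 55.7 in knockout at ZT4. In the dark phase it was at 220.9, 196.0 and 242.7 against 122.2, 60.1 and 64.2. No knockout value reached a wild-type value of the same time. The log2 fold changes were -1.31 ± 0.22 (adjusted p = 0.00623) and -1.42 ± 0.22 (adjusted p = 0.00301), and -1.84 at ZT16 without knockout replicate 2 (adjusted p = 1.75e-07). Gsta2, also of the alpha class, was at 92.8 to 111.7 CPM in wild type and 119.3 to 142.9 in knockout at ZT4, and at 113.4 to 156.3 against 142.2 to 285.9 at ZT16. Of its 50-base stretches 49.8% occur in other genes, with 36.0% in Gsta1. Its log2 fold changes of 0.34 ± 0.23 and 0.51 ± 0.22 did not pass the test (adjusted p = 0.419 and 0.285). Without replicate 2 that at ZT4 did (0.35, adjusted p = 0.0431) and that at ZT16 was 0.10 (adjusted p = 0.568).

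Gstm7 was at 7.74, 7.52 and 6.31 CPM in wild type and 13.5, 13.0 and 13.8 in knockout at ZT4. At ZT16 it was at 8.94, 7.99 and 7.98 against 18.5, 13.0 and 12.2. All 6 knockout libraries lay above all 6 wild-type ones. The log2 fold changes were 0.90 ± 0.15 (adjusted p = 0.00594) and 0.81 ± 0.15 (adjusted p = 0.00829). With only the 6 ZT16 libraries in the fit, the ZT16 calls of Gstm7 and Gsta3 were lost (adjusted p = 0.102 and 0.0628). The other 5 mu-class genes were not called at either time. Of these, Gstm5 (-0.35 ± 0.22 and -0.20 ± 0.22, adjusted p = 0.399 and 0.699) passed without knockout ZT16 replicate 2 (-0.35 and -0.61, adjusted p = 0.030 and 0.0016), and at ZT4 with only the 6 ZT4 libraries in the fit (adjusted p = 0.0187). Gstm1, the most abundant of them, was at 240.3 to 271.8 CPM in wild type and 204.7 to 285.4 in knockout at ZT4.

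Gstp1 (ENSMUSG00000060803), the pi-class enzyme, was at 55.4, 46.7 and 50.3 CPM in wild type and 38.8, 34.4 and 39.8 in knockout at ZT16 (-0.43 ± 0.10, adjusted p = 0.0255). At ZT4 it was at 39.1, 46.6 and 40.0 CPM against 39.6, 37.7 and 37.6 (-0.13 ± 0.10, adjusted p = 0.473), where the groups overlapped. Of its 50-base stretches 33.7% occur in other genes, mostly in Gstp2. The ZT16 call was lost without wild-type ZT16 replicate 1 or 5 or knockout ZT16 replicate 4 (adjusted p = 0.0956, 0.0672 and 0.115) and in the fit of the 6 ZT16 libraries alone (adjusted p = 0.180), and held without knockout replicate 2 (adjusted p = 0.00397). Gstt1, of the theta class, was at 102.8 to 140.9 CPM in wild type and 82.0 to 84.8 in knockout at ZT4, with log2 fold changes of -0.59 ± 0.20 there and -0.49 ± 0.20 at ZT16 (adjusted p = 0.141 and 0.240). Both passed without knockout ZT16 replicate 2 (adjusted p = 0.00378 and 0.000625). Gstz1, Gstk1, Gsto1, Gsto2, Gstt2, Gstt3 and both microsomal enzymes, Mgst1 and Mgst3, did not pass at either time, nor did Gsta4. At ZT16, 6 of these 9 passed as lower without knockout replicate 2: Gsta4 (-0.61, adjusted p = 0.000251), Mgst3 (-0.67, adjusted p = 0.00179), Gstt2 (-0.42, adjusted p = 0.00243), Gsto1 (-0.37, adjusted p = 0.00445), Gstk1 (-0.50, adjusted p = 0.00573) and Gstz1 (-0.48, adjusted p = 0.00784). With all libraries their ZT16 differences ran from -0.41 (Gsta4) to -0.12 (Mgst3). Over all tested genes 31.2% were called at ZT16 without that replicate.

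Of the 11 tested glycosyltransferases 2 were called at ZT4 and none at ZT16 (edgeR; 2 had an unadjusted p under 0.05 at ZT16, DESeq2 called 1 and limma voom 0). Ugt3a2 (ENSMUSG00000049152, chr15:9335550-9370955) was at 2257, 2293 and 1931 CPM in wild type and 1446, 1438 and 1510 in knockout at ZT4 (-0.56 ± 0.12, adjusted p = 0.0302). At ZT16 it was at 2314, 2199 and 2799 against 2270, 1778 and 1774 (-0.33 ± 0.12, adjusted p = 0.205). The groups were separate at ZT4 and overlapped at ZT16 through knockout replicate 2, without which the ZT16 difference passed (-0.47, adjusted p = 0.00517). The ZT4 call was lost in 6 of 19 alternatives, with wild-type ZT4 replicate 1 or 3, any 1 knockout ZT4 library or wild-type ZT16 replicate 1 left out (adjusted p up to 0.131).

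Ugt1a10 (ENSMUSG00000090165, chr1:88055388-88219004) was at 1.85, 1.54 and 2.79 CPM in wild type and 12.7, 11.2 and 12.4 in knockout at ZT4 (2.54 ± 0.63, adjusted p = 0.0481). At ZT16 it was at 4.02, 17.7 and 2.01 against 9.13, 18.6 and 15.6 (0.85 ± 0.56, adjusted p = 0.496). The ZT4 groups were far apart, and those at ZT16 overlapped only through wild-type replicate 3, without which the difference was 2.25 ± 0.36 (adjusted p = 0.00653). The ZT4 call was lost in 11 of 19 alternatives (adjusted p up to 0.192), the removal of any 1 of the 6 ZT4 libraries among them, while the log2 fold change stayed between 2.38 and 2.83 in those. The genes of the Ugt1 locus splice their own first exon to a common set of exons, and 58.1% of the exonic bases of Ugt1a10 are shared with other genes on its strand. Ugt1a7c, with the highest CPM of the locus, was at 218.8 to 238.3 CPM in wild type and 199.9 to 216.8 in knockout at ZT4, and was not called. In the annotation used here it ends at 88220002, past Ugt1a10, Ugt1a6a, Ugt1a6b and Ugt1a9 (88218997 to 88219004). Reads past those ends would count for Ugt1a7c whichever first exon was used. Its CPM thus does not show which transcript of the locus was most abundant.

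Ugt2b38 was at 832.4, 1060 and 760.5 CPM in wild type and 467.2, 460.9 and 488.6 in knockout at ZT4, and at 1023, 1024 and 1709 against 1258, 574.7 and 681.6 at ZT16. The groups were separate at ZT4 and overlapped at ZT16. The log2 fold changes of -0.91 ± 0.27 and -0.58 ± 0.27 did not pass the test (adjusted p = 0.103 and 0.318), but did without knockout ZT16 replicate 2 (-0.90 and -1.01, adjusted p = 0.00372 and 0.00239). Ugt2b5 was at 2.51 to 3.68 CPM against 4.03 to 4.81 at ZT4 and at 2.03 to 2.95 against 3.16 to 6.43 at ZT16, with log2 fold changes of 0.64 ± 0.25 and 0.90 ± 0.25 (adjusted p = 0.203 and 0.0779). At ZT4 that difference passed without knockout ZT16 replicate 2 (adjusted p = 0.0284) and with only the 6 ZT4 libraries in the fit (adjusted p = 0.0208), and at ZT16 by DESeq2 (adjusted p = 0.0168) and without knockout ZT16 replicate 4 (adjusted p = 0.031). Both Ugt2 genes share a good part of their sequence with other genes (37.4 and 41.7% of 50-base stretches).

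None of the 6 tested sulfotransferases was called between genotypes at either time by edgeR, DESeq2 or limma voom with all 12 libraries, and 0 had an unadjusted p under 0.05 in edgeR. Sult1d1 was at 817.8 to 1023 CPM in wild type and 740.7 to 863.0 in knockout at ZT4, and at 1355 to 1768 against 1125 to 2167 at ZT16. Its values overlapped between genotypes at both times. Sult1c2, the next most abundant, was at 129.3 to 141.6 CPM against 99.99 to 120.3 at ZT4, where the groups were separate without passing the test (-0.28 ± 0.15, adjusted p = 0.345). It passed without knockout ZT16 replicate 2 at ZT4 and at ZT16 (-0.28 and -0.31, adjusted p = 0.0308 and 0.0179), and at ZT4 with only the 6 ZT4 libraries in the fit (adjusted p = 0.0302). Without that replicate, Sult1a1 was also called lower (-0.42, adjusted p = 0.0166) and Sult5a1 higher (0.82, adjusted p = 0.0252) at ZT16.

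Between the times the calls went 1 way. In wild type 7 of the 44 genes were higher at ZT16 than at ZT4 and none lower, beside 6.5% of all tested genes called (2.87% higher, 3.63% lower). They were Nat8f5, Nat8f6, Nat8f3, Nat8, Nat8f1, Sult1a1 and Gstt2. In knockout 5 were higher and none lower (Nat8f5, Nat8f6, Sult1a1, Sult1d1 and Ugt3a1), beside 10.5% of all tested genes (5.27% higher, 5.2% lower). Nat8f5, Nat8f6 and Sult1a1 were called in both genotypes.

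The median log2 fold change of the 44 genes was 0.35 in wild type and 0.40 in knockout, with -0.01 over all tested genes in each case, and 39 and 38 of the 44 estimates were above 0. In wild type the libraries did not overlap between the times for 24 genes, beside 42.6% of all tested genes. All 24 were higher at ZT16, beside 21.3%, and none was lower, beside 21.3%. In knockout 21 genes did not overlap, beside 43.3%, of which 19 were higher (21.1%) and 2 lower (22.2%). Without knockout ZT16 replicate 2, 24 genes were called in wild type (all higher, beside 33.5% of all genes in either direction) and 4 in knockout (all higher, beside 8%). The knockout median was then 0.19. The genes its removal added in wild type were Nat8f2, Gsta2, Gsta3, Gsta4, Gstk1, Gstm5, Gsto1, Gstp1, Gstt1, Gstz1, Mgst1, Mgst3, Sult1b1, Sult1d1, Ugt1a9, Ugt1a10 and Ugt2b38, and in knockout Ugt3a1 was lost. Ugt1a9 had not passed the filter in the main fit. In wild type at ZT16 it was at 0.034, 5.38 and 0.104 CPM, and Ugt1a10 at 4.02, 17.7 and 2.01, both highest in replicate 3.

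**Figure D4:**
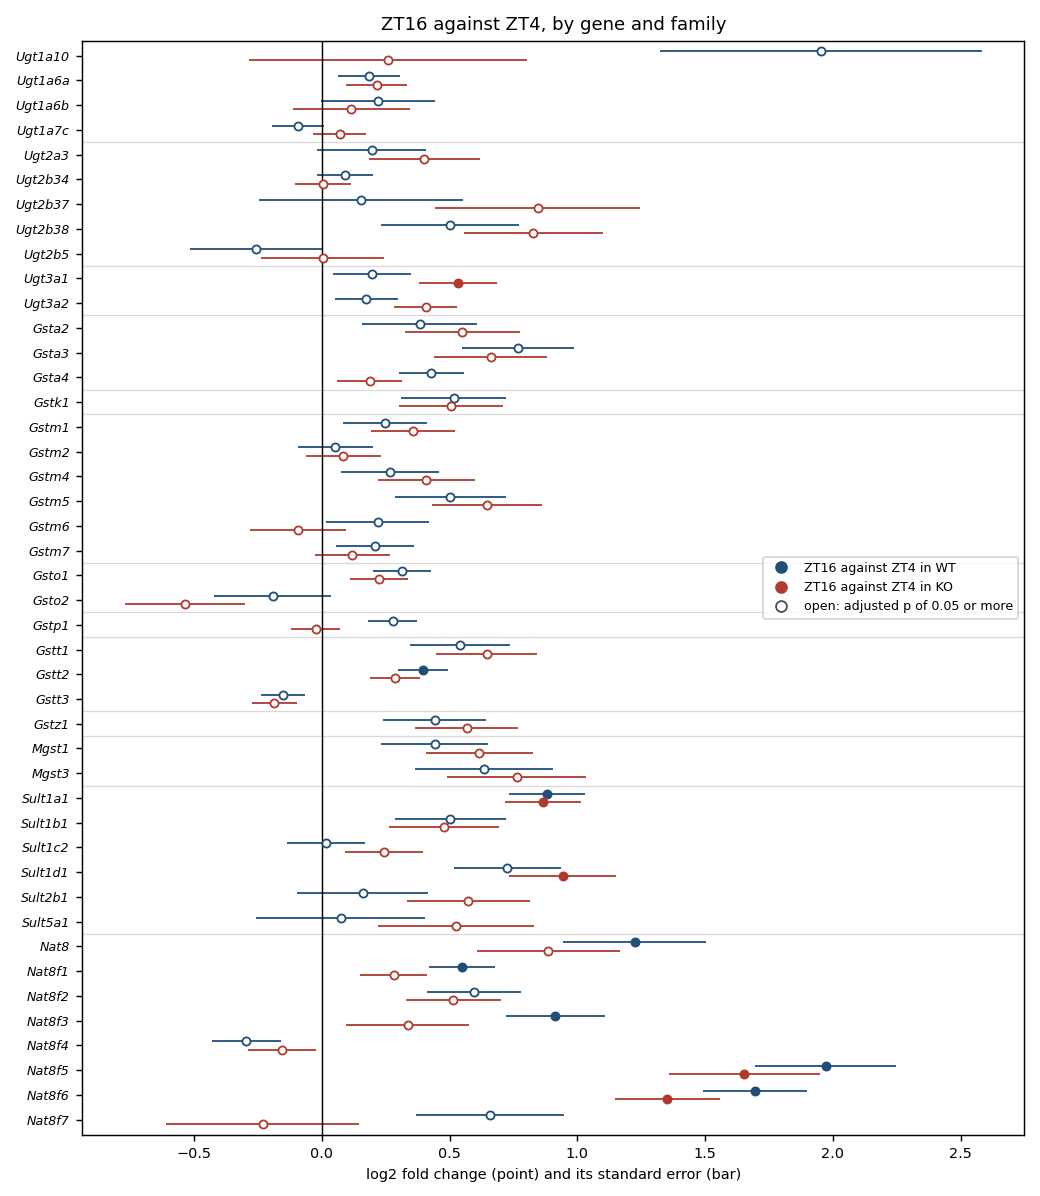
Log2 fold change of ZT16 against ZT4 for the 44 tested genes in wild type (blue) and knockout (red), with standard errors as bars; filled points have an adjusted p under 0.05. Most points lie right of 0 in both genotypes, and Nat8f5, Nat8f6 and Sult1a1 are filled in both.

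In wild type Nat8f5 and Nat8f6 had the largest rises that passed, at 1.97 ± 0.28 (adjusted p = 0.00279) and 1.69 ± 0.20 (adjusted p = 0.00104) on the log2 scale. In knockout they rose from their lower levels by 1.65 ± 0.29 (adjusted p = 0.0111) and 1.35 ± 0.21 (adjusted p = 0.00604). The libraries of both genes given above did not overlap between the times in either genotype. Nat8 rose in wild type (1.22 ± 0.28, adjusted p = 0.0263), and in knockout its difference was 0.89 ± 0.28 (adjusted p = 0.0584), or 0.41 without knockout ZT16 replicate 2 (adjusted p = 0.150). Nat8f3 and Nat8f1 rose in wild type by 0.91 ± 0.19 (adjusted p = 0.0197) and 0.55 ± 0.13 (adjusted p = 0.0308), and in knockout stood at 0.34 ± 0.24 and 0.28 ± 0.13 (adjusted p = 0.325 and 0.142). Nat8f5 and Nat8f6 stayed called in wild type in every alternative tried. Nat8f3 lost its wild-type call without ZT4 replicate 5 or ZT16 replicate 1 or 5, Nat8 without ZT4 replicate 1 or 5 or ZT16 replicate 1 or 5, and Nat8f1 without ZT4 replicate 3 or 5, any 1 wild-type ZT16 library or any 1 knockout ZT4 library (adjusted p up to 0.0786, 0.128 and 0.140). In knockout Nat8f5 lost its call without ZT4 replicate 4 (adjusted p = 0.0532) and Nat8f6 in the fit of the 6 knockout libraries alone (adjusted p = 0.0536).

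Sult1a1 (ENSMUSG00000030711), a sulfotransferase of phenols, was at 15.9, 13.3 and 12.8 CPM at ZT4 and 28.1, 21.9 and 27.5 at ZT16 in wild type. In knockout it was at 11.4, 12.1 and 12.8 and then 27.1, 19.1 and 19.8. All ZT16 libraries lay above all ZT4 libraries. The rises were 0.88 ± 0.15 in wild type (adjusted p = 0.00686) and 0.86 ± 0.15 in knockout (adjusted p = 0.00966). Sult1d1 (ENSMUSG00000029273) was at 863.0, 740.7 and 770.2 CPM at ZT4 and 2167, 1269 and 1125 at ZT16 in knockout (0.94 ± 0.21, adjusted p = 0.0219). In wild type it was at 866.7, 1023 and 817.8 and then 1355, 1355 and 1768 (0.73 ± 0.21, adjusted p = 0.0586). The times were separate in both genotypes, and without knockout ZT16 replicate 2 both differences passed (0.59 and 0.73, adjusted p = 0.0124 and 0.000618). The knockout call of Sult1d1 was lost without any 1 of the 3 knockout ZT4 libraries (adjusted p up to 0.0936), and those of Sult1d1 and Sult1a1 in the fit of the 6 knockout libraries alone (adjusted p = 0.104 and 0.0649).

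Gstt2, of the theta class, was at 144.5, 149.1 and 162.2 CPM at ZT4 and 200.4, 215.4 and 183.6 at ZT16 in wild type (0.39 ± 0.10, adjusted p = 0.0367). In knockout it was at 133.1, 128.0 and 135.8 and then 184.0, 156.4 and 143.9 (0.29 ± 0.10, adjusted p = 0.0706). The wild-type call was lost without any 1 of the 6 wild-type or the 3 knockout ZT4 libraries (adjusted p up to 0.110). Ugt3a1 was at 262.3, 226.5 and 240.2 CPM at ZT4 and 464.2, 294.3 and 295.5 at ZT16 in knockout (0.53 ± 0.15, adjusted p = 0.0479). The 464.2 CPM came from replicate 2, and without it the difference was 0.27 (adjusted p = 0.061); the call was also lost without any 1 of the wild-type or knockout ZT4 libraries or the wild-type ZT16 libraries (adjusted p up to 0.157). In wild type Ugt3a1 was at 258.3 to 272.8 CPM and then 282.3 to 335.3, separate but not called (0.20, adjusted p = 0.39). Gsta3, which fell in knockout, had time differences of 0.77 ± 0.22 in wild type and 0.66 ± 0.22 in knockout (adjusted p = 0.0573 and 0.0665), of which that in wild type passed without knockout ZT16 replicate 2 (0.77, adjusted p = 0.00018).

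Whether the genotype difference itself changed with time was tested as an interaction. None of the 44 genes passed (edgeR quasi-likelihood test), nor with DESeq2 or limma voom, and 1 had an unadjusted p under 0.05 (Gstp1, -0.30 ± 0.14, adjusted p = 0.9996). Over all tested genes 0.0186% were called, and without knockout ZT16 replicate 2 none of the 44 passed either, beside 0.0489% of all genes. The largest estimates belonged to Ugt1a10 (-1.69 ± 0.83) and Nat8f7 (-0.89 ± 0.48). Time differences called in 1 genotype only are therefore not shown to differ between the genotypes.

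The enzymes that supply and follow conjugation were counted from lists. The mercapturate path turns glutathione conjugates into mercapturic acids, and its list also holds genes that act on these or on cysteine conjugates, such as Acy1 and Kyat1. Of 12 tested genes 4 were lower and none higher in knockout at ZT4, and 4 were lower and 1 higher at ZT16. Cndp2, a cytosolic dipeptidase, went from 1904 ± 215 to 834 ± 32.4 CPM (SD, n = 3) at ZT4 and from 2287 ± 426 to 1151 ± 208 at ZT16 (-1.19 ± 0.15 and -0.99 ± 0.15 SE, adjusted p = 0.000877 and 0.00252). Ggt1, the gamma-glutamyltransferase of the brush border, fell by less (-0.43 ± 0.08 and -0.34 ± 0.08, adjusted p = 0.00966 and 0.0283). Acy1, an aminoacylase that removes acetyl groups from mercapturic acids and amino acids, fell at both times (-0.54 ± 0.09 and -0.77 ± 0.09, adjusted p = 0.00648 and 0.000376). Acy3 fell at ZT4 (-0.54 ± 0.13, adjusted p = 0.0414), Kyat1, a cysteine conjugate beta-lyase, fell at ZT16 (-0.61 ± 0.14, adjusted p = 0.0259), and Ggt6 rose at ZT16 (0.66 ± 0.13, adjusted p = 0.0103). Cndp2 and Acy1 stayed called with each library left out. The ZT4 calls of Ggt1 (without wild-type replicate 3 or knockout replicate 6) and Acy3 (without any 1 ZT4 library, wild-type ZT16 replicate 1 or knockout ZT16 replicate 6), and the ZT16 calls of Kyat1 (without wild-type replicate 5 or knockout replicate 4 or 6) and Ggt6 (without wild-type replicate 3), did not. When knockout ZT16 replicate 2 was left out, 1 of the 12 was higher and 5 lower at ZT4, and 1 higher and 6 lower at ZT16. Over all tested genes 15.3% were then called at ZT4 and 31.2% at ZT16. With all libraries those shares were 3.29% and 4.03%.

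The supply of donors showed few calls. None of 6 genes of UDP-glucuronate supply and none of 8 of sulfate donor supply was called at either time by edgeR, DESeq2 or limma voom, with 1 and 0 of them at an unadjusted p under 0.05 at ZT16 and 0 in both at ZT4. Without knockout ZT16 replicate 2, 1 of the 6 was lower at ZT16, and of the 8, 1 was higher and 1 lower. In the glutathione list 1 of 12 was lower at each time, Oplah, which makes glutamate from 5-oxoproline (-0.48 ± 0.11 and -0.66 ± 0.11, adjusted p = 0.0288 and 0.00325). Without that replicate 3 of the 12 were lower at ZT4, and 1 was higher and 5 lower at ZT16. Over all tested genes 15.3% were called at ZT4 and 31.2% at ZT16 in that fit. Of 20 other conjugating enzymes, Gm4952 was lower at ZT4 (-1.05 ± 0.23, adjusted p = 0.027), and 1 was higher at ZT16. Without knockout ZT16 replicate 2, 1 of the 20 was higher and 6 lower at ZT4, and 3 were higher and 11 lower at ZT16. Of 10 efflux and uptake carriers of conjugates, Abcc3 was higher (1.05 ± 0.23 and 1.57 ± 0.25, adjusted p = 0.0312 and 0.00313) and the organic anion transporter Slc22a8 lower at both times (-0.93 ± 0.11 and -0.80 ± 0.11, adjusted p = 0.000677 and 0.00138). Without that replicate 2 of the 10 were higher and 4 lower at ZT4, and 3 were higher and 1 lower at ZT16. Slc22a8 kept both calls with each library left out, while Abcc3 at ZT4 lost its call without any 1 ZT4 library, Oplah at ZT4 without any 1 except wild-type replicate 3, and Gm4952 at ZT4 without any 1 except knockout replicate 2.

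Genes that hydrolyse conjugates or epoxides had 2 of 6 lower at ZT4, Gusb (beta-glucuronidase, -0.67 ± 0.13, adjusted p = 0.0131) and Ephx2 (soluble epoxide hydrolase, -0.67 ± 0.16, adjusted p = 0.0445), and none called at ZT16 (edgeR; 4 had an unadjusted p under 0.05, DESeq2 called 2 and limma voom 1). At ZT16 1 was higher and 3 lower without knockout replicate 2. The ZT4 call was lost for Gusb without wild-type replicate 3 or knockout replicate 4 or 6, and for Ephx2 without any 1 ZT4 library or wild-type ZT16 replicate 1 or 3. Among 13 targets of the oxidant-responsive factor NRF2 outside the 45 genes, Hmox1 was lower and Cbr1 higher at both times, and Srxn1 was lower at ZT4. Without knockout ZT16 replicate 2, 2 of the 13 were higher and 4 lower at ZT4, and 1 was higher and 4 lower at ZT16. Hmox1, which breaks down haem, differed by -0.84 ± 0.11 and -0.72 ± 0.11 (adjusted p = 0.00144 and 0.00325), and Cbr1, a carbonyl reductase, by 0.72 ± 0.12 and 0.80 ± 0.12 (adjusted p = 0.00594 and 0.00224). Both kept their calls with each library left out, and Srxn1 lost its call without any 1 ZT4 library except wild-type replicate 5. Of 25 regulators, 2 were higher and 4 lower at ZT4, and 2 and 5 at ZT16, clock genes such as Npas2, Dbp and Nr1d2 among them. Without knockout ZT16 replicate 2, 4 of the 25 were higher and 6 lower at ZT4, and 8 were higher and 6 lower at ZT16. Over all tested genes 15.3 and 31.2% were then called. Nfe2l2, the gene of NRF2, was at 129.8 ± 2.95 CPM in wild type and 133.4 ± 5.73 in knockout at ZT4 (SD, n = 3).

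Markers of proximal tubule, where many of these enzymes are made, moved with the genotype in part. Of 12 markers 4 were lower at ZT4 (Aqp1, Miox, Slc27a2 and Slc7a13) and 2 at ZT16 (Miox and Slc27a2), and none higher. Slc34a1 was at 4069 to 4778 CPM in wild type and 4768 to 5183 in knockout at ZT4, and Lrp2 at 2778 to 2889 against 2509 to 2771. The summed level of the list, most of it the androgen-dependent gene Kap, was 48190 to 59450 CPM against 39250 to 41790 at ZT4 and 60220 to 90690 against 47900 to 97250 at ZT16, and the highest value was that of knockout replicate 2. Of 10 androgen-responsive kidney genes 4 were lower at ZT4 (Cyp2e1, Cyp4b1, Gusb and Slc7a13), and at ZT16 2 were lower and 1 higher. Their median log2 fold change was -0.68 at ZT4 and -0.50 at ZT16, with 9 and 8 of the 10 below 0. Without knockout ZT16 replicate 2, 6 were lower and 1 higher at ZT4, and 7 lower and 1 higher at ZT16. The part of these differences in those of the conjugating enzymes was not tested. Of 10 liver markers 6 could be tested, and 3 were higher and 1 lower in knockout at each time. The summed level of the 10 was 418.1 to 471.2 CPM in wild type and 603.2 to 680.6 in knockout at ZT4. At ZT16 it was 425.8 to 516.5 against 679.5 to 769.1. Tat was at 0 and Ahsg, Cps1 and Serpina3k were at or under 0.173 CPM in every library. Of the adrenal markers, 2 were tested and not called. Cyp11b1 was at 0, and that list summed to 3.43 to 5.48 CPM. Umod of the thick ascending limb was lower at ZT4 and Csf1r of macrophages at both times. With all 12 libraries, no marker of distal convoluted tubule, principal or intercalated cells, podocytes, endothelium, fibroblasts, lymphocytes or fat cells was called between genotypes. Without knockout ZT16 replicate 2, 15.3% of all tested genes were called at ZT4 and 31.2% at ZT16. Of the 12 proximal tubule markers 5 were then lower at each time and 2 higher at ZT16. Of 6 endothelial markers 3 were lower at each time and 1 was higher at ZT16. Of 6 fibroblast markers 2 were lower at each time. The distal convoluted tubule then had 2 of 4 higher at ZT16, and lymphocytes had none of 5 called. Principal cells had 1 of 5 higher at ZT4, and 2 higher and 1 lower at ZT16. Intercalated cells had 1 of 6 higher at ZT4, and 1 higher and 1 lower at ZT16. Podocytes had 1 of 5 higher at ZT16, and fat cells 1 of 6 lower at each time. The thick ascending limb had 1 of 5 higher and 1 lower at ZT4 and 1 lower at ZT16. Macrophages had 1 of 6 lower at ZT4 and 2 at ZT16.

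Motifs near the starts were counted over all promoters. RefSeq gave 54 windows for 41 of the 45 genes, with none for Ugt1a6b, Gstt2, Gsta4 and Ugt3a2. The E-box was in 0 of the 54, beside 6.02% of all 32817 windows, and the E-prime box in 3 (5.56%, beside 3.85%), those of Nat8f5, Gstm1 and Gstp1. The D-box was in 5 (9.26%, beside 5.43%), those of Gsta3, Sult1a1, Ugt1a10, Ugt1a9 and Ugt2a3. The nuclear receptor core was in 18.5% (beside 14%), the antioxidant response element in 9.26% (beside 10.2%) and the xenobiotic core in 22.2% (beside 28.1%). Of the genes called at both times, Nat8f3 and Nat8f6 held none of the 6 motifs in these windows. A match is a description of these letters, and binding was not measured.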

How the data were processed

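RNA of whole kidney (500 ng per library, stranded mRNA kit) was sequenced in 12 libraries, per the labels' protocols. The deposited values are whole-number counts per gene, made by the authors with cutadapt 1.2.1, TopHat2 2.0.9 and HTSeq 0.5.4p3 on GRCm38, per the submitters' processing notes; HTSeq's strand setting and annotation are not stated there. Rows that name no gene stayed out of library sizes and tests: reads without a feature came to 3.50 to 5.96% of all counts in the tables, ambiguous reads to 0.411 to 0.534% and reads without a unique position to 30.8 to 43.0%. Of 38924 identifiers 37607 were named from GENCODE M21 (GRCm38).

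All 12 libraries were fitted as 4 group means with edgeR 4.0.16 (R 4.3.3; TMM scaling, filterByExpr, quasi-likelihood test, no block), and p-values were adjusted by Benjamini-Hochberg over 16150 genes. The script was tested on simulated data. Alternatives were RLE and upper-quartile scaling, 2 other filters, DESeq2 1.42.0, limma voom 3.58.1, a fit of the 6 libraries compared, a threshold of 0.01, a block for the replicate number and the removal of each library. Genes named with values in every library were those called in any comparison; the leading gene of each family, the neighbours of the 0.5 CPM minimum and up to 4 called genes per list and genotype comparison were also named. The genes and lists were chosen with earlier results of these data known. Exon lengths, exon overlaps and shared 50-base stretches came from GENCODE M21, and promoters from RefSeq (GRCm38.p6). A few results from the lists are not reported here.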

Additional observations from a re-analysis of the deposited data

How the results depend on the processing

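Of the called genes given with a log2 fold change, none changed sign under any alternative. The median of the 44 genes at ZT16 did, at 0.01 without knockout ZT16 replicate 4. Of the genes called, 7 of 10 at ZT4 (Gsta3, Gstm7 and Nat8f1, Nat8f2, Nat8f3, Nat8f5 and Nat8f6), 6 of 9 at ZT16 (Nat8f1, Nat8f2, Nat8f3, Nat8f5, Nat8f6 and Nat8f7), 3 of 7 between the times in wild type (Nat8f5, Nat8f6 and Sult1a1) and 0 of 5 in knockout stayed called in every alternative. Counts moved by over 1.5 times as follows, and the cause was not tested. With only the 6 libraries compared in the fit, 17 genes were called at ZT4, 20 between the times in wild type and 1 in knockout. Over all tested genes 2877 of 15851, 3557 of 15588 and 36 of 15859 were called in those fits. DESeq2 called 12 between the times in wild type and 16 in knockout, beside 2149 and 3705 of all 16150 tested genes. No filter gave 8 in knockout, beside 1730 of 23956. The threshold of 0.01 left 3 in wild type and 2 in knockout. With 1 library left out, counts ranged from 7 to 17 at ZT4, 8 to 23 at ZT16, 3 to 24 between the times in wild type, 2 to 20 in knockout and 0 to 0 for the interaction. The highest counts at ZT4, at ZT16 and in wild type came without knockout ZT16 replicate 2, beside 15.3, 31.2 and 33.5% of all tested genes. In wild type the count was 3 without ZT4 replicate 5 or ZT16 replicate 1 and 4 without ZT16 replicate 5. Over all genes 220 of 16384, 441 of 16393 and 261 of 16383 were then called. In knockout the count was 3, 2 and 3 without ZT4 replicate 2, 4 or 6, beside 408 of 16344, 181 of 16335 and 213 of 16333 genes. It was 18 and 20 without ZT16 replicate 4 or 6, beside 2878 of 16376 and 3629 of 16368. Thus the members' counts moved together with those of other genes. The rule gave 45 genes on TMM-scaled CPM too.

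Libraries of the 2 times share replicate numbers within a genotype. The deviations of same-numbered libraries from their group means had correlations of 0.05, -0.07 and -0.27 in wild type and -0.01, -0.05 and 0.00 in knockout. Libraries with unlike numbers gave -0.19 to 0.22. With 3 libraries a group, whose deviations sum to 0, these values cannot decide whether the numbers mark a pairing. With the replicate number as a block, 8 genes were called between the times in wild type and 0 in knockout, beside 611 of 15588 and 1 of 15859 tested genes. No paired analysis was possible between genotypes because wild type and knockout share no number.

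With 3 libraries a group, several calls turned on the tool, the libraries in the fit or 1 library. Nat8 at ZT16 was called by DESeq2 (adjusted p = 0.00688), by limma voom (adjusted p = 0.0394) and with no filter (adjusted p = 0.0284) as well as without knockout ZT16 replicate 2. Ugt2b38 at ZT4 was called by DESeq2 (adjusted p = 0.0185), and both genes at ZT4 with only the 6 ZT4 libraries (adjusted p = 0.00717 and 0.000205). Genes at the lowest levels, such as Sult5a1, Gsto2 and Ugt1a9, rest on few counts. Ambiguous reads and reads without a unique position were counted to no gene. Levels of copies with shared sequence (Nat8f3, Nat8f6, Nat8f7, Gsta2, the Ugt1 genes) can therefore be too low, by an amount these counts do not show.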

Other observations

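Some genes of the Ugt1 locus, and not others, were high in wild-type ZT16 replicate 3. Ugt1a9 was at 5.38 CPM there and at most at 0.549 in any other library, so that 1 library carried it over the minimum of 0.5 CPM. Ugt1a8, which is below the minimum, was at 0.420 CPM there and at most at 0.0823 elsewhere. Ugt1a10 was at 17.7 CPM there, against 4.02 and 2.01 in the other wild-type ZT16 libraries, while Ugt1a7c was at 178.2 CPM there and at up to 238.3 elsewhere. Ugt1a6a was at 6.19 CPM there and at up to 7.80 elsewhere. Ugt1a1 and Ugt1a2 were at 0.448 CPM each in that library and at most at 0.447 and 0.953 in the others. Ugt1a8 was chosen after its values were seen, and no cause was tested.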
